A study of Homo sapiens with 6 samples.

Results

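The human transcriptome holds many long noncoding RNAs (lncRNAs) that are transcribed from the strand opposite to a known gene and are named after that gene with the ending -AS and a digit. The genes described here are such antisense lncRNAs together with their sense partners, the genes they are named after, in RNA-seq libraries labelled LoVo, an established human colorectal cancer cell line, after knockdown of the lncRNA *SNHG15*. The file of counts held 1767 genes with an -AS name. Of these, 227 were members: they were annotated as lncRNA, lay outside chromosomes X and Y, were not *OIP5-AS1*, and were chosen by a measured value, a sum of at least 60 raw counts over the 6 libraries. A further 1472 had fewer counts, 59 lay on X or Y, 8 were not annotated as lncRNA and 1 was *OIP5-AS1*. The count sum that chose the members did not use the contrast between the conditions.

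Antisense lncRNAs often start near the promoter of their partner and are transcribed away from it, or run back through its introns and exons. Some are known to act on the partner's transcription or RNA stability, and many are short-lived nuclear RNAs that the RNA exosome degrades. Cancer studies often report them as markers, but for most of them no function is known.

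The scramble group held 3 libraries from cells transfected with a negative control siRNA, and the siRNA group held 3 libraries from cells transfected with a combination of siRNAs against *SNHG15*. In both, the siRNA was at 25 nM for 48 h, with Lipofectamine 2000, in cells with no other stated genetic change. The study's methods call the 3 libraries of a condition biological replicates. Since the 6 libraries carry 1 label for the cell line and 1 siRNA combination, an effect of these siRNAs on other transcripts cannot be told apart from an effect of losing *SNHG15*. Polyadenylated RNA was sequenced, so antisense RNAs without a poly(A) tail were not measured.

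Library totals lay between 3446922 and 10256710 counts, with scramble replicate 3 the shallowest. *SNHG15*, the targeted lncRNA, was counted 2473, 2783 and 864 times without and 557, 578 and 742 times with the siRNAs (replicates 1 to 3, the order used throughout). After scaling for library size it stood at 29.9% of its scramble level (log2 fold change -1.74, SE 0.12, adjusted p = 2.62e-05). Markers of colonic epithelium went against the label in both conditions. Of 14 such markers, 4 (*CDH1*, *KRT8*, *KRT18* and *CDX2*) reached 60 counts. *KRT19*, *KRT20*, *CDX1*, *VIL1* and *CEACAM6* were at 0 in all 6 libraries, *EPCAM* had 2 counts and *CEACAM5* had 1. The summed level of the 14 markers was 98.9 to 106 CPM (counts scaled to the same library size of 1000000) in the scramble and 109 to 118 CPM in the siRNA libraries. None of 6 fibroblast, 5 leukocyte or 3 endothelial markers found in the file reached 60 counts, so no other cell type of these lists was seen. The libraries are therefore called by their label only, and what the missing epithelial markers mean for the members was not tested.

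Most antisense lncRNAs were scarce. The median member had 199 counts over the 6 libraries and a mean level of 4.36 CPM, within a range of 1.25 to 234 CPM. Under 100 counts stood 57 members, and 22 had at least 1000. All members together took 0.220% of the counts, and the 12 most counted held 36.2% of that share. They lay on 22 chromosomes. At the edge of the rule, *JDP2-AS1*, *LIPT2-AS1*, *SDCBP2-AS1* and *WARS2-AS1* had exactly 60 counts, and *MCF2L-AS1*, *SLC16A4-AS1* and *STK24-AS1* fell outside with 59.

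The most abundant member was *EPB41L4A-AS1*, which also hosts a small nucleolar RNA. Its counts were 2040, 3181 and 693 in scramble and 1034, 1693 and 2147 in siRNA libraries, or 255 ± 55.2 and 213 ± 60.5 CPM (SD, n = 3). The conditions overlapped. Its partner *EPB41L4A*, a gene of the band 4.1 cytoskeletal family in which the lncRNA is nested, had 4, 4 and 1 and then 10, 1 and 1 counts. The antisense gene thus carried nearly all counted reads of the pair. Exons of the pair overlap by 2200 bases, and how reads there were counted is not known. *FGD5-AS1*, with 3012 counts in all, had a partner at 0 in every library: *FGD5*, a guanine nucleotide exchange factor known from endothelium. In all, 10 partners were at 0 (*ADIRF*, *DLGAP1*, *ENTPD3*, *FGD5*, *HSD11B1*, *KCNJ5*, *NUTM2A*, *PYDC2*, *SLC9A3* and *TSPEAR*), which are named because they form the whole group. The other members among the 12 most counted were *TAPT1-AS1*, *ELFN1-AS1*, *PRKAG2-AS1*, *ZNF433-AS1*, *ZSCAN16-AS1*, *FAM131B-AS2*, *PRKCQ-AS1*, *ZNF232-AS1*, *MUC12-AS1* and *EXOC3-AS1*, with 4202 down to 1512 counts. In the comparison of conditions with edgeR's filter and TMM scaling, none of the 12 was called, but *TAPT1-AS1* was called with RLE factors, with a replicate block and without a filter, and *MUC12-AS1* without a filter.

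A partner could be assigned to 223 members. The other 4, *HOXD-AS2*, *HOXB-AS4*, *HOXC-AS2* and *HOXC-AS3*, are named after a HOX cluster rather than a gene and had 512, 216, 172 and 101 counts. The 223 pairs held 221 distinct partners, because *TMEM44* and *DLGAP1* each have a pair of antisense members. Of the partners, 220 were protein-coding and 180 had at least 60 counts. By the annotation, 105 pairs were head-to-head with overlapping spans, that is, divergent genes whose first parts cross. A further 16 were head-to-head without overlap, 41 were tail-to-tail, 41 antisense genes were nested in the partner, 18 partners were nested in the antisense gene, and 2 (*FAM131B-AS2* and *PYDC2-AS1*) lay on the same strand as the gene they are named after. The start of 74 members lay within 1000 bp of the partner's start.

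Overlap bears on the counts themselves. In 185 members some exon bases lay under exons of a gene on the other strand, and in 42 none did. The library kit keeps the strand, but whether the counting used it is not given in the sources used here. Of the genes whose exons were wholly covered by exons of a gene on the opposite strand, 46 lay under a gene with at least 5000 counts, and 41 of these 46 were at 0. Together they held 152 counts, where the density of counts on the covering genes would give 41457. Reads in exons annotated on both strands were thus not added to the antisense gene. This count of 0 arises both if strand was used and if ambiguous reads were dropped, and which of these applied was not tested. If ambiguous reads were dropped, a partner would have lost reads of shared exon bases as well as the member. Reads from introns of a partner could still have been counted on an antisense gene nested in it.

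Levels of both genes of a pair were compared per exonic kilobase in the 181 pairs whose partner had at least 60 counts. Exon lengths were merged over all annotated transcripts, and the annotation used for counting is not given. The ratios therefore also rest on these lengths. The median antisense lncRNA stood at 0.436 times its partner, and in 61 of 181 pairs it was above it. The highest ratios were those of *ELFN1-AS1*, *PRRT3-AS1* and *MUC12-AS1*, at 45.9, 37.4 and 27.6 times *ELFN1*, *PRRT3* and *MUC12*. In counts, without regard to length, *MUC12-AS1* stood below *MUC12* (1539 against 2067 in all). *ELFN1-AS1* had 500, 527 and 224 scramble counts and 504, 442 and 488 siRNA counts, and *ELFN1*, which encodes a postsynaptic leucine-rich repeat protein, had 57, 90 and 17 and then 31, 45 and 55. Every library thus held more reads of the antisense gene than of the partner. At the other end, *PCBP1-AS1*, *TPT1-AS1* and *H1-10-AS1* stood 1099, 671 and 182 times below their partners, which encode an RNA-binding protein, the abundant tumor protein TCTP and a linker histone. Part of the first ratio is exon length, as *PCBP1-AS1* had 442 counts and *PCBP1* had 24162. *TPT1-AS1* had 81, 91 and 34 and then 86, 65 and 96 counts, while *TPT1* had 29453, 31606 and 12180 and then 26077, 21531 and 29155. By position, the median ratio was 1.57 for head-to-head pairs without overlap, 0.780 for antisense genes nested in the partner, 0.548 for partners nested in the antisense gene, 0.334 for head-to-head pairs with overlap and 0.236 for tail-to-tail pairs. A member nested in its partner could hold intronic reads of that partner. Where exons of a pair overlap, the member, and the partner as well, could have lost reads of the shared bases, depending on the counting.

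**Figure D1:**
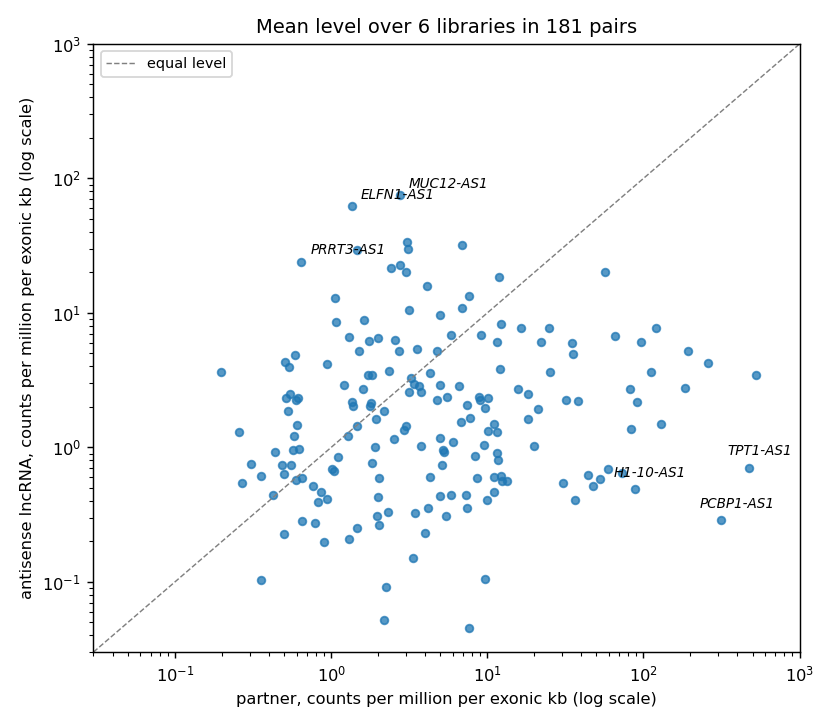
Each point is 1 of 181 pairs, with the mean level of the partner over 6 libraries on the x axis and that of the antisense lncRNA on the y axis, both in CPM per exonic kilobase on log scales. The dashed line marks equal levels, 61 points lie above it, and the 3 highest and 3 lowest ratios are named.

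To ask whether *SNHG15* knockdown changed the antisense lncRNAs, siRNA libraries were compared with scramble libraries in a test over all 12507 genes that passed a filter on low counts. It called 671 genes (5.36%) at an adjusted p under 0.05, of which 392 (3.13%) were higher and 279 (2.23%) lower. The filter passed 226 of the 227 members. The exception was *EHBP1-AS1*, with 11, 25 and 4 counts in scramble and 6, 11 and 10 in siRNA libraries. The test called 8 members (3.54%), of which 4 rose and 4 fell. With a filter of 60 summed counts instead, in which all 227 members were tested against a background of 5.28%, these same 8 were called. With either of these filters, the share of members called was thus not above that of all genes. Without a filter it was 9.25% against 5.54%, but these shares are not of like genes. The 23675 genes of that fit include those with fewer than 60 counts, while every member had at least 60. The share of sense partners called in that fit was 9.95%. Unadjusted p values under 0.05 were found for 46 members (20.4%), where 2820 of all 12507 genes (22.5%) had them. The 6 CPM values of 67 members (29.6%) did not overlap between the conditions, where 28.8% of all tested genes did not. Of the 67, 44 were higher and 23 lower with the siRNA, while among all genes 14.7% were higher and 14.1% lower. The median log2 fold change of the members was 0.09, and 137 of 226 were above 0.

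Of the members that rose, *WAC-AS1*, *KLC1-AS1* and *PPP1R26-AS1* are described. *WAC-AS1* and *KLC1-AS1* were rare in the scramble libraries. *WAC-AS1* (ENSG00000254635, chromosome 10 from 28811581 to 28821995, minus strand) had 19, 23 and 8 counts in scramble and 46, 41 and 40 in siRNA libraries. Every siRNA library was above every scramble library, at 5.66 ± 0.87 against 2.31 ± 0.10 CPM (SD, n = 3), a log2 fold change of 1.29 (SE 0.26, adjusted p = 0.0137). Its partner *WAC*, an adaptor protein with a WW domain that acts in histone H2B ubiquitination, had 554, 641 and 230 and then 461, 413 and 523 counts, with a log2 fold change of -0.10 (SE 0.12, adjusted p = 0.678). The starts of the pair lie 573 bp apart, and 15.2% of the exon bases of *WAC-AS1* lie under exons of the other strand.

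*KLC1-AS1* (ENSG00000246451, chromosome 14 from 104148699 to 104150352) is nested in *KLC1*, which encodes a kinesin light chain, and none of its exon bases lie under opposite exons. It had 11, 12 and 9 counts in scramble and 63, 31 and 28 in siRNA libraries. The conditions did not overlap, but siRNA replicate 1 stood above the rest, and the mean rose from 1.74 ± 0.86 to 5.49 ± 2.87 CPM (log2 fold change 1.84, SE 0.43, adjusted p = 0.0258). *KLC1* had 524, 631 and 179 and then 464, 447 and 475 counts. Its log2 fold change was 0.04 (SE 0.13, adjusted p = 0.884).

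*PPP1R26-AS1* (ENSG00000225361, chromosome 9 from 138354573 to 138372623) had 105, 137 and 38 and then 134, 141 and 170 counts. It rose from 12.5 ± 1.08 to 19.6 ± 0.91 CPM, the smallest change of the 8 called members (log2 fold change 0.64, SE 0.15, adjusted p = 0.0319). *PPP1R26*, a regulatory subunit of protein phosphatase 1, had 505, 800 and 236 and then 476, 423 and 411 counts, which overlapped after scaling, and a log2 fold change of -0.26 (SE 0.16, adjusted p = 0.340). The filter's level was met in the siRNA libraries only by 3 members, *PAXIP1-AS2* and *TMC3-AS1* among them, and 1 of the 8 called members was of this kind: such a member had to differ to be tested. *KLC1-AS1* met the level in 1 scramble and 3 siRNA libraries, so it too passed the filter through the group where it was higher.

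**Figure D2:**
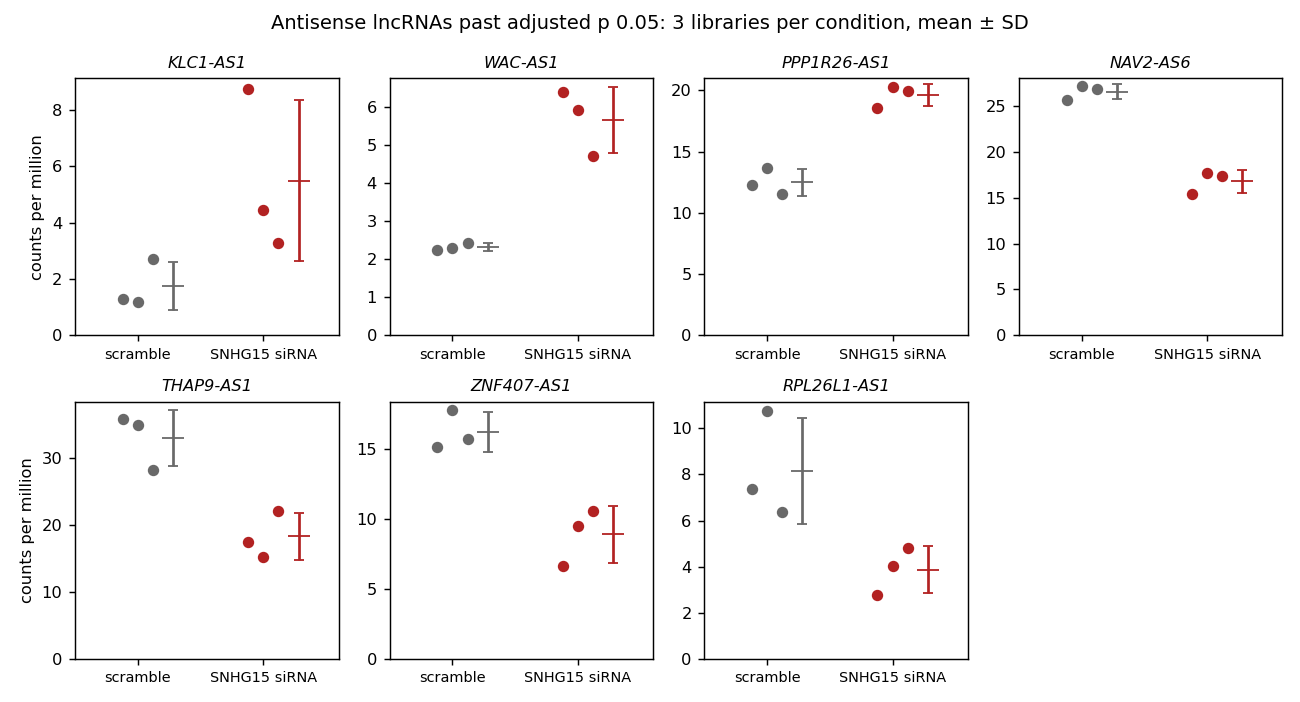
Points are the CPM values of the 3 scramble (grey) and 3 *SNHG15* siRNA (red) libraries for 7 of the 8 antisense lncRNAs past the threshold, and bars are mean ± SD. In each panel the conditions do not overlap, and the y axis starts at 0.

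The members that fell were *THAP9-AS1*, *NAV2-AS6*, *ZNF407-AS1* and *RPL26L1-AS1*. *THAP9-AS1* (ENSG00000251022, chromosome 4 from 83814162 to 83822113, minus strand) had 306, 351 and 93 counts in scramble and 126, 106 and 188 in siRNA libraries. All siRNA libraries were lower, at 18.3 ± 3.49 against 33.0 ± 4.22 CPM (log2 fold change -0.86, SE 0.17, adjusted p = 0.0134). Its partner *THAP9*, a gene derived from a DNA transposase, was nearly silent at 10, 4 and 4 and then 7, 4 and 7 counts and was not tested. *NAV2-AS6* (ENSG00000270607, chromosome 11 from 19732480 to 19734165) is nested in *NAV2*, a neuron navigator gene. It had 219, 274 and 89 and then 111, 123 and 148 counts, and fell from 26.6 ± 0.84 to 16.8 ± 1.25 CPM (log2 fold change -0.66, SE 0.14, adjusted p = 0.0203). *NAV2* had 160, 170 and 54 and then 106, 105 and 126 counts, also without overlap, but its log2 fold change of -0.23 (SE 0.15) did not pass the test (adjusted p = 0.395).

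*ZNF407-AS1* (ENSG00000264247, chromosome 18 from 72257553 to 72266121) had 129, 179 and 52 and then 48, 66 and 90 counts. It fell from 16.2 ± 1.41 to 8.91 ± 2.02 CPM (log2 fold change -0.86, SE 0.20, adjusted p = 0.0236), while *ZNF407*, a zinc finger gene that starts 1015 bp away, had a log2 fold change of 0.23 (SE 0.20, adjusted p = 0.531). *RPL26L1-AS1* (ENSG00000204758, chromosome 5 from 172381789 to 172386395, minus strand) fell most. It had 63, 108 and 21 and then 20, 28 and 41 counts, or 8.16 ± 2.30 and 3.87 ± 1.03 CPM (log2 fold change -1.11, SE 0.27, adjusted p = 0.0329). *RPL26L1*, which encodes a ribosomal protein close to RPL26, had 1071, 1283 and 402 and then 497, 656 and 818 counts and fell as well (log2 fold change -0.53, SE 0.14, adjusted p = 0.0462). Reads that *RPL26L1* shares with *RPL26* could be placed on either gene. Of the 223 pairs, this was the 1 pair in which both genes were called.

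The promoter windows of the pairs *RPL26L1* and *WAC* are shown since both are head-to-head, and both genes of the former and the antisense gene alone of the latter were called. The windows run from 250 bases before to 50 after a start in RefSeq (build GRCh38.p14), 5′ to 3′ on the strand of the gene. *RPL26L1* has 2 windows, of which the first is shown. Capitals mark CCGGAAG, the core of the binding site of ETS factors, or its reverse complement CTTCCGG. The windows lie at chr5:172958479-172958778 (plus strand), chr5:172959319-172959618 (minus), chr10:28532529-28532828 (plus) and chr10:28532305-28532604 (minus).
RPL26L1: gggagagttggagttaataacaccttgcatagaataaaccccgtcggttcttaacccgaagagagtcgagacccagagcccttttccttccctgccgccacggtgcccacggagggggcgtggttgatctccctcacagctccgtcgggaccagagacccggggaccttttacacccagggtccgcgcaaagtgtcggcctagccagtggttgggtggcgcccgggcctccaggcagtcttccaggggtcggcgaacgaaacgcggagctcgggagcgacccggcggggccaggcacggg
RPL26L1-AS1: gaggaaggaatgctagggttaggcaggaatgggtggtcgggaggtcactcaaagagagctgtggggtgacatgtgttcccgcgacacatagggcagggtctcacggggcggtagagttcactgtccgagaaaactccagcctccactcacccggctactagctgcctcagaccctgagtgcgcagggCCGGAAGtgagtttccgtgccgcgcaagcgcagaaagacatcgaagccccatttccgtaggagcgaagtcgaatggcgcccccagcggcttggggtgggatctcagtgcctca
WAC: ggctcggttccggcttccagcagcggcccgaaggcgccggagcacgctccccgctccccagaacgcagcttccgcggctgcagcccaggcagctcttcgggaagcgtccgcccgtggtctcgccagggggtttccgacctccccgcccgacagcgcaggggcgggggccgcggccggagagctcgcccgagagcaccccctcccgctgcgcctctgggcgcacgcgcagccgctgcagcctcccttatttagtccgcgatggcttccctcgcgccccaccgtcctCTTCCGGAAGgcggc
WAC-AS1: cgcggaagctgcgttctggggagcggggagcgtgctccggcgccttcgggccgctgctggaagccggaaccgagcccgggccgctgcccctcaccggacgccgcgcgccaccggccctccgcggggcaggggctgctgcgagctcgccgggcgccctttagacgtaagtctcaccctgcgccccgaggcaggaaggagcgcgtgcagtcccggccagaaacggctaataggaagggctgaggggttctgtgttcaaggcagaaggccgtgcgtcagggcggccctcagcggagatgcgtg
The motif stands 1 time in *RPL26L1-AS1*, and in *WAC* both orientations overlap in 1 stretch. The *WAC* and *WAC-AS1* windows share bases of the same DNA, read from opposite strands, while those of the *RPL26L1* pair are apart.

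RefSeq windows were found for 180 of the 227 members (232 windows) and for 191 partners (333 windows), and were searched on both strands. CCGGAAG or CTTCCGG was in 12.5% of the member windows, 11.1% of the partner windows and 10.3% of all 35116 windows. The E-box CACGTG, bound by MYC and other factors, was in 7.76%, 7.81% and 7.26%. The TATA-box sequence TATAAA, or TTTATA on the other strand, was in 3.88% of the member windows, 7.81% of the partner windows and 11.5% of all windows. These shares are descriptions of letters in the windows. None of the windows found for the 8 called members held CACGTG or TATAAA, but these windows are too few to set against shares of this size. *NAV2-AS6* and *KLC1-AS1* are among the called members without a window.

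**Figure D3:**
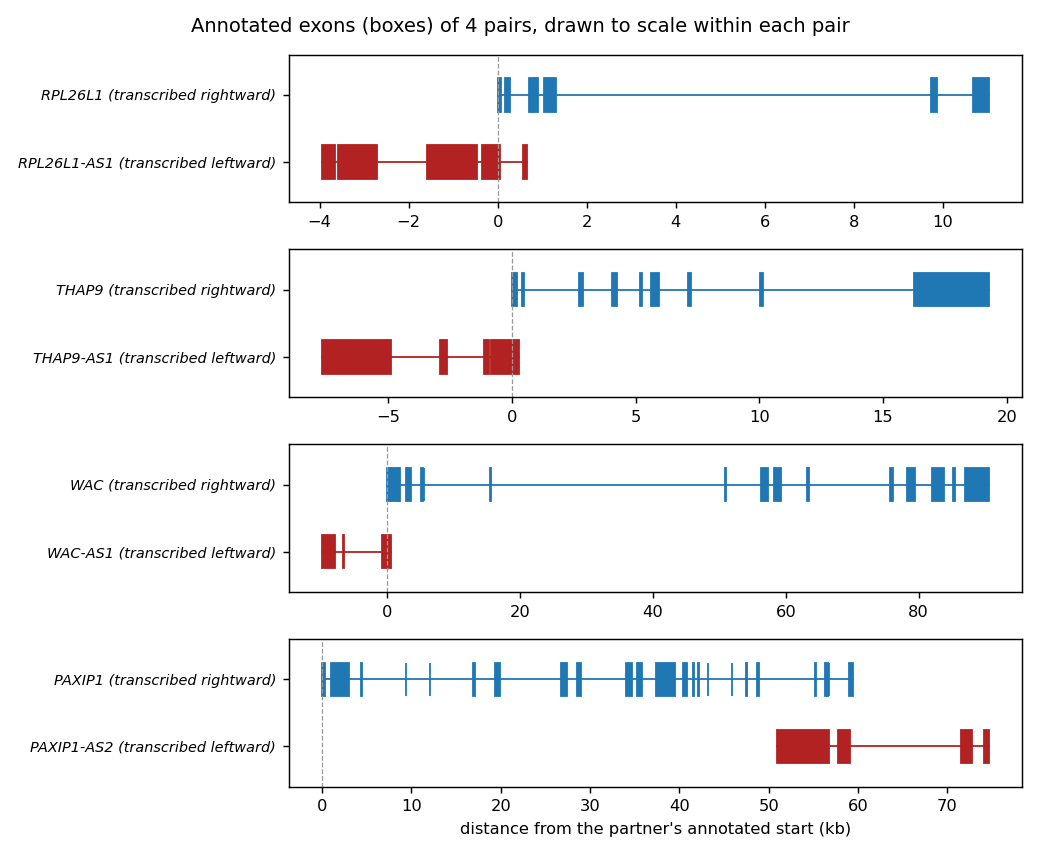
Boxes are annotated exons, merged over all transcripts of a gene, of *RPL26L1*, *THAP9*, *WAC* and *PAXIP1* (blue) and their antisense lncRNAs (red), with the distance in kb from the partner's start on the x axis. *RPL26L1-AS1*, *THAP9-AS1* and *WAC-AS1* cross the partner's start, and *PAXIP1-AS2* crosses the partner's far end.

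Among the sense partners, 183 passed the filter and 11 were called (6.01%), 6 higher and 5 lower. The higher partners were *SBNO1*, *BAZ2B*, *DENND3*, *IDH1*, *KTN1* and *SLC12A9*. *SBNO1*, a helicase-like homolog of the fly gene strawberry notch, rose most. It had 75, 74 and 23 counts in scramble and 207, 122 and 192 in siRNA libraries, or 7.70 ± 0.96 and 22.9 ± 5.58 CPM, which did not overlap (log2 fold change 1.55, SE 0.21, adjusted p = 0.00249). *SBNO1-AS1*, which starts 979 bp away, had 39, 29 and 15 and then 43, 33 and 40 counts. Its siRNA libraries were above the scramble libraries, but its log2 fold change of 0.40 (SE 0.26) did not pass the test (adjusted p = 0.389).

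*BAZ2B*, a bromodomain protein of chromatin remodelling, had 34, 39 and 18 and then 98, 50 and 78 counts (log2 fold change 1.23, SE 0.27, adjusted p = 0.0203), and *BAZ2B-AS1* had 20, 26 and 4 and then 10, 12 and 19, which overlapped (log2 fold change -0.30, adjusted p = 0.649). *IDH1*, the cytosolic NADP-dependent isocitrate dehydrogenase, had 305, 418 and 110 and then 400, 494 and 765 counts (log2 fold change 0.96, SE 0.18, adjusted p = 0.00911). *IDH1-AS1* had 38, 30 and 10 and then 36, 34 and 41 counts, and its siRNA libraries were all higher after scaling, with a log2 fold change of 0.46 that missed the threshold (adjusted p = 0.298). The siRNA libraries were above the scramble libraries for *DENND3*, *KTN1* and *SLC12A9* as well. *DENND3*, an exchange factor for a Rab GTPase, had 41, 49 and 17 and then 68, 70 and 82 counts (log2 fold change 0.98, SE 0.20, adjusted p = 0.0136). *KTN1*, the kinesin-binding protein kinectin, had 491, 701 and 177 and then 1039, 744 and 784 (log2 fold change 0.91, SE 0.17, adjusted p = 0.00964). *SLC12A9*, of the cation-chloride cotransporter family, had 726, 714 and 311 and then 1064, 941 and 998 (log2 fold change 0.68, SE 0.14, adjusted p = 0.0161). *DENND3-AS1*, *KTN1-AS1* and *SLC12A9-AS1* had 75, 156 and 348 counts in all and overlapped between the conditions, with log2 fold changes of 0.20, 0.33 and 0.11 and adjusted p values of 0.794, 0.509 and 0.791.

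The lower partners were *PAXIP1*, *ZNF433*, *SPRY4*, *RPL26L1* and *H1-10*. *PAXIP1* encodes PTIP, a BRCT-domain protein of histone methyltransferase complexes and DNA repair. It had 333, 493 and 147 counts in scramble and 109, 162 and 193 in siRNA libraries, or 44.2 ± 5.01 and 20.4 ± 4.56 CPM (log2 fold change -1.12, SE 0.18, adjusted p = 0.00569). Its tail-to-tail neighbour *PAXIP1-AS2* had 8, 6 and 1 and then 18, 17 and 11 counts, with a log2 fold change of 1.57 (SE 0.45) that missed the threshold (adjusted p = 0.0613). After scaling, every siRNA library was below the scramble libraries for *PAXIP1* and above them for *PAXIP1-AS2*, of which *PAXIP1* passed the test. *PAXIP1-AS2* met the filter's level in the siRNA libraries only, so it had to differ to be tested.

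*ZNF433*, a zinc finger gene nested in *ZNF433-AS1*, had 48, 72 and 26 and then 26, 20 and 26 counts (log2 fold change -1.08, SE 0.24, adjusted p = 0.0223). *ZNF433-AS1* had 389, 459 and 143 and then 426, 424 and 480 counts, and its siRNA libraries were all above the scramble libraries at 58.8 ± 2.32 against 44.8 ± 1.37 CPM, without passing the test (log2 fold change 0.39, SE 0.13, adjusted p = 0.0889). *SPRY4*, an inhibitor of receptor tyrosine kinase signalling, had 5973, 7676 and 1750 and then 2784, 3148 and 3783 counts (log2 fold change -0.64, SE 0.15, adjusted p = 0.0248). *SPRY4-AS1* had 56, 60 and 13 and then 42, 39 and 50 and overlapped (log2 fold change 0.01, adjusted p = 0.985). *H1-10* had 1364, 1579 and 501 and then 900, 779 and 873 counts (log2 fold change -0.47, SE 0.12, adjusted p = 0.0418), and *H1-10-AS1* had 13, 17 and 3 and then 14, 11 and 20 (log2 fold change 0.41, adjusted p = 0.523).

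Fold changes of a member and its partner were set side by side in the 183 pairs in which both were tested. They had the same sign in 98 pairs, with Pearson's r of 0.08 and Spearman's rho of 0.14 across the pairs. These points share the 6 libraries and their scaling, so the values are descriptions. In the 15 head-to-head pairs without overlap, r was 0.70 and rho 0.74, and 10 had the same sign. The members of this class included *URB1-AS1*, *SCAMP1-AS1* and *ZNF22-AS1*, each below 0 with its partner, and *RHPN1-AS1*, *TRIM52-AS1* and *DLG5-AS1*, each above 0 with its partner. Among those with the opposite sign were *MNX1-AS1* (0.34, partner -0.19), *TPT1-AS1* (0.19, partner -0.02) and *EXOC3-AS1* (-0.09, partner 0.02). None of the class was called. In the 30 pairs with the antisense gene nested in the partner, r was 0.32 and rho 0.39, with the same sign in 21. In the 97 overlapping head-to-head pairs both were 0.07, with the same sign in 48. In the 31 tail-to-tail pairs r was -0.13 and rho 0.04, with the same sign in 16, and in the 9 pairs with the partner nested in the antisense gene r was -0.29 and rho -0.35, with the same sign in 2. The antisense gene and the partner were called together in 1 pair, and either was called in 18.

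**Figure D4:**
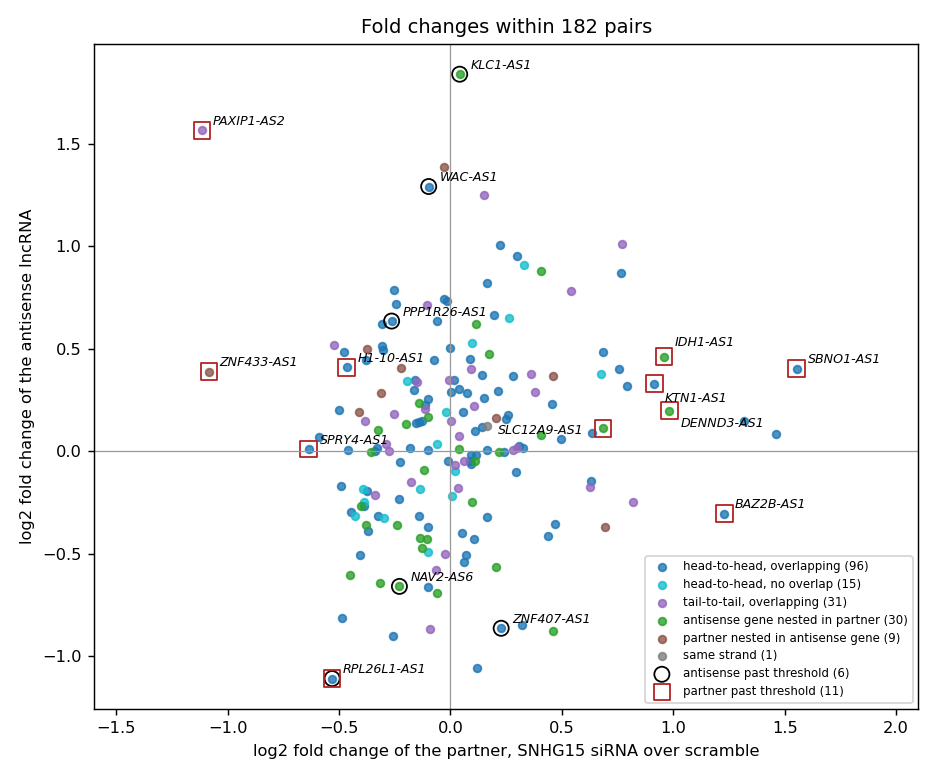
Each point is 1 of 182 pairs, with the log2 fold change (siRNA over scramble) of the partner on the x axis and of the antisense lncRNA on the y axis, coloured by position. Black rings mark 6 called members and red squares 11 called partners, and *RPL26L1-AS1* carries both; *THAP9-AS1* is absent because its partner was not tested.

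The scaling of a library cancels in its antisense-to-sense ratio, apart from the prior count. The ratio was taken as the log2 CPM of the member minus that of the partner, with a prior count of 2. In 49 of 181 pairs (27.1%) the ratios did not overlap between the conditions, 33 of them higher and 16 lower with the siRNA. For single genes, the CPM values of 28.8% of all tested genes did not overlap. Ratios of other gene pairs were not taken, so the share has no background of its own kind. With 3 libraries against 3, the two-sided exact permutation test cannot go below p = 0.1, which every one of these pairs has, so the ratios are descriptions. Among these 49 pairs, the largest rise was in *PAXIP1-AS2* over *PAXIP1*, from a log2 ratio of -5.72 ± 0.64 to -3.16 ± 0.70 (SD, n = 3), a difference of 2.56. *PAXIP1-AS2* had 61 counts in all and met the filter's level in 0 scramble and 3 siRNA libraries. It therefore passed the filter only through the group where it was higher, and its place in this order carries that limit. *KLC1-AS1*, *ZNF433-AS1* and *WAC-AS1* rose against their partners as well, with differences of 1.44, 1.43 and 1.29. The largest falls among them were in *SBNO1-AS1*, from -0.92 ± 0.34 to -2.08 ± 0.22, and *ZNF407-AS1*, from 1.23 ± 0.21 to 0.12 ± 0.36. The called gene was the partner in the *SBNO1* pair and the antisense gene in the *ZNF407* pair. In *RPL26L1*, where both genes fell, the ratio moved by -0.48.

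**Figure D5:**
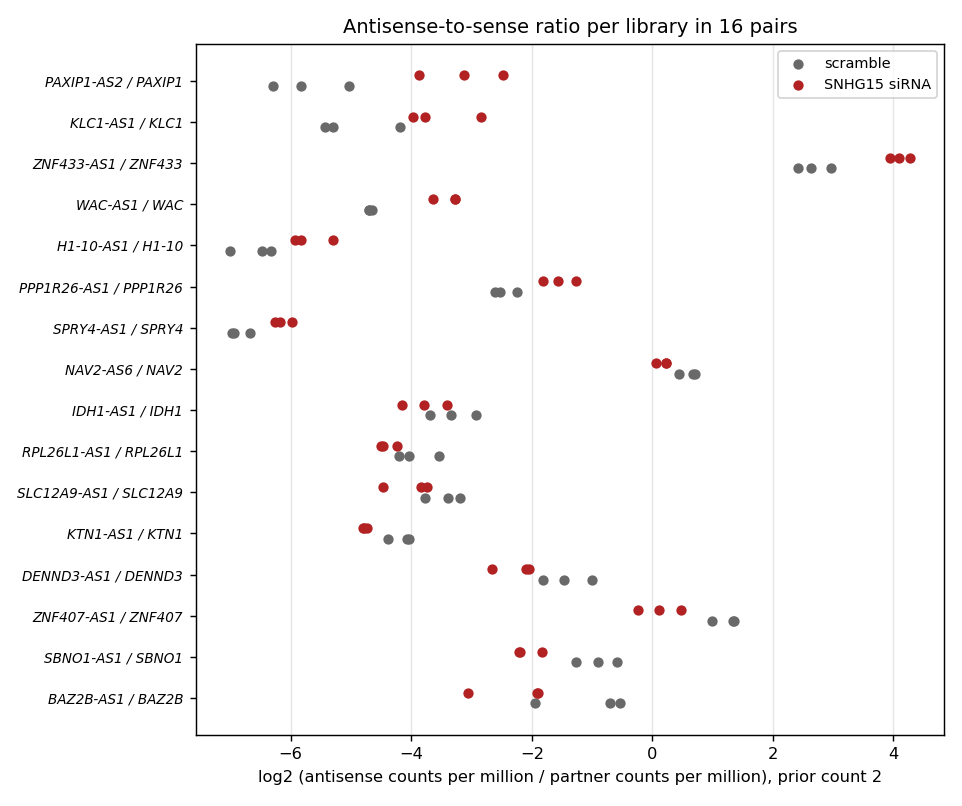
Points are the log2 antisense-to-sense ratios of the 3 scramble (grey) and 3 *SNHG15* siRNA (red) libraries in 16 pairs with a ratio in which either gene was called. The pairs are ordered by the difference between the conditions, which runs from *BAZ2B-AS1* at the bottom to *PAXIP1-AS2* at the top. *PAXIP1-AS2* met the filter's level in the siRNA libraries only.

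The calls depended on the tool and on single libraries. DESeq2, against a background of 5.8%, called 9 members (3.96%), of which 6 were shared with edgeR. *PPP1R26-AS1* was among those not called (adjusted p = 0.0573), and *TAPT1-AS1*, *VPS9D1-AS1* and *MUC12-AS1* were added. *TAPT1-AS1*, the second most counted member, had 829, 1351 and 372 and then 380, 601 and 669 counts, without overlap, and in edgeR its log2 fold change was -0.66 (SE 0.18, adjusted p = 0.0513). *MUC12-AS1* had 240, 242 and 104 and then 389, 268 and 296 counts (log2 fold change 0.62, adjusted p = 0.0651 in edgeR), and *VPS9D1-AS1* had 221, 419 and 117 and then 136, 187 and 155 (log2 fold change -0.69, adjusted p = 0.0654), with overlap. Without a filter on low counts, against a background of 5.54%, edgeR called 21 members. Beyond those named, these were *PAXIP1-AS2*, *NUP153-AS1*, *ILRUN-AS1*, *FOXP4-AS1*, *ST7-AS1*, *CA3-AS1*, *KCTD21-AS1*, *CNPY2-AS1*, *MSRB3-AS1* and *SLC25A21-AS1*, whose adjusted p values in the filtered test lay between 0.0574 and 0.203.

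Leaving out scramble replicate 1 or scramble replicate 2, edgeR called 0 members and 199 and 139 of all genes (1.57% and 1.10%). Unadjusted p values under 0.05 were then found for 40 and 32 members (17.6% and 14.3%), where 17.8% and 16.0% of all genes had them. Without scramble replicate 3 it called 3 members (1.32%, against 2.06% of all genes). Without siRNA replicates 1, 2 and 3 it called 8, 4 and 11 members (3.52%, 1.76% and 4.91%, against 6.34%, 2.78% and 5.27% of all genes). *KLC1-AS1* and *WAC-AS1* were called in 4 of the 6 fits with a library left out, *THAP9-AS1* in 3, *NAV2-AS6* and *ZNF407-AS1* in 2, and *RPL26L1-AS1* and *PPP1R26-AS1* in 1. The direction of each was the same in all 6. Of the partners, *SBNO1* and *PAXIP1* were called in all 6. *RPL26L1* and *ZNF433* were called in 2 and *H1-10* in 1. Scaled by upper quartiles, edgeR called 7 members higher and 4 lower, and 515 of all genes higher and 230 lower, with the median log2 fold change of all genes at 0.04.

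Other lncRNA classes with at least 60 counts were set beside the antisense lncRNAs in the same test. Divergent transcripts, whose names end in -DT, had 7 of 121 called (5.79%), LINC genes 6 of 72 (8.33%), the remaining lncRNAs 18 of 351 (5.13%) and protein-coding genes 540 of 10129 (5.33%). The antisense lncRNAs had the lowest share of these classes, but the difference was not tested. Their median summed count, 199, was close to the 208 of divergent transcripts and below the 1332 of protein-coding genes. Of 43 symbols of RNA turnover, the exosome, its adaptors, nonsense-mediated decay and termination factors that degrade or end noncoding transcripts, 42 were found and 41 tested, and their median log2 fold change was -0.08. The test called 2 of them (4.88%, where 5.36% of all genes were called), 1 higher and 1 lower. The higher was *DIS3*, a catalytic subunit of the exosome, with 123, 100 and 37 and then 154, 122 and 165 counts (log2 fold change 0.71, SE 0.18, adjusted p = 0.0396). With a library left out, *DIS3* was called in 0 of the 6 fits. The part of these genes in the members' levels was not tested.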

How the data were processed

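RNA from 6 libraries labelled LoVo, 3 for each condition, was prepared with the TruSeq Stranded mRNA kit and sequenced as 75 bp paired-end reads. The authors deposited raw counts of reads per gene for 63677 Ensembl identifiers, without normalization. The study's methods name bowtie2 and hg19, the submitters' processing notes name STAR, featureCounts and hg19 without a version, and the counting annotation and strand setting are not given in the sources used here. The RNA extraction is TRIzol in the labels and a Maxwell kit in the methods.

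GENCODE release 44, as mapped to GRCh37, gave gene names, types and exons, and 8012 identifiers had no entry there. Partners were the gene whose symbol precedes -AS. The members and lists were chosen with earlier results of these data known. Named genes followed a rule: every called member or partner with the other gene of its pair, the 12 most counted members, the 3 pairs at each end of the level ratio, members called by DESeq2 or without a filter, genes at the 60-count edge, *SNHG15*, and called turnover genes. Some genes that the rule takes are not reported here. The head-to-head pairs without overlap, *TMC3-AS1*, *EHBP1-AS1* and the partners at 0 were named after their values were seen.

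Counts were tested with edgeR 4.0.16 in R 4.3.3 (filterByExpr with a minimum count of 10 and total of 15, TMM scaling, quasi-likelihood test, no block, Benjamini-Hochberg adjusted p under 0.05). The standard error is the fold change divided by the square root of its F statistic. CPM values use TMM-scaled library sizes. DESeq2 1.42.0 was an alternative, with RLE and upper-quartile factors, other filters, a replicate block and leaving out each library. The steps were tested on simulated data. Totals of 3446922 to 10256710 counts mean that a member with 60 counts has few reads in the shallowest library, and the quoted errors cover the spread between these libraries only. Libraries of a condition differed by 4.20 to 20.5 times the sampling noise (chi-square per degree of freedom), so none was a copy. Authors' comparison columns were not used, and 0 columns were left unassigned.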

Additional observations from a re-analysis of the deposited data

How the results depend on the processing

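The counts of calls depended on the filter and on single libraries. Without a filter on low counts, edgeR called 1312 genes (5.54%), 21 members (9.25%) and 21 partners (9.95%). The first share includes genes with fewer than 60 counts, which no member has, so the shares are not of like genes. A filter of 10 counts in each of the 6 libraries left it 130 members to test. Of these it called 5, since members such as *KLC1-AS1* and *WAC-AS1* were no longer tested. Leaving out 1 library at a time gave 139 to 812 genes, 0 to 11 members and 3 to 13 partners, and 64 to 73 pairs with ratios that did not overlap, the last because fewer libraries must be separated. With RLE or upper-quartile factors, a filter of 60 summed counts or DESeq2, all 3 counts of calls stayed within 1.5 times their values. Scaling by library totals and prior counts of 0.5 and 5 gave 48 to 50 pairs. Fold changes near 0 turned their sign: *SPRY4-AS1* was at -0.016 without a filter and from -0.12 to 0.14 with a library left out, *DENND3-AS1* from -0.027 to 0.42 and *KLC1* from -0.019 to 0.11, and the cause was not tested.

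Libraries with the same replicate number did not deviate together (correlations of -0.070, 0.155 and -0.042), and 1 of 3 scramble libraries correlated best with its own number, so the numbers were not taken as pairs. A fit with the replicate block called 543 genes, 9 members and 9 partners. It kept 7 of the 8 members, without *PPP1R26-AS1*, and 9 of the 11 partners, without *RPL26L1* and *H1-10*. The median member had 199 counts in all, which limits the size of change that could be detected.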
